A study of Mus musculus with 12 samples.

Results

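The genes described here are the intracellular arm of TGF-beta signaling and its brakes: Smad2, Smad3, Smad4, Smad7, Pmepa1, Ski, Skil, Smurf1, Smurf2 and Tgif1. They were taken by name, as every probe set whose single gene symbol is one of these 10, and they are 10 of the 18193 genes on the array with a probe set of their own. They hold 23 of 45037 probe sets, and each gene is given by its brightest probe set over the 12 arrays, with the others as a check. RNA came from 12 LLC tumors, made by implanting the mouse line Lewis lung carcinoma under the flank skin of female C57BL/6 mice aged 6 to 8 weeks, and taken on day 19. The 4 groups of 3 tumors were 1D11_radiation (the antibody 1D11 with radiation), radiation (the antibody 13C4 with radiation), 1D11 (1D11 alone) and control (13C4 alone). 1D11 is an antibody that blocks TGF-beta and 13C4 the matched antibody without that activity, so every tumor received one. The characteristics give 5 fractions of 6 Gy, while the sample descriptions speak of 2 Gy. The host mice had an intact immune system and their own stroma, so each array measures cancer and host cells together, and fewer cells of a type cannot be told apart from less RNA per cell.

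TGF-beta receptors phosphorylate Smad2 and Smad3, which join Smad4, enter the nucleus and switch genes on or off. Several of the genes they switch on turn the signal down again. Smad7 blocks the receptors and brings the ubiquitin ligases Smurf1 and Smurf2 to them, Pmepa1 keeps Smad2 and Smad3 away from the receptor complex, and Ski, Skil (also called SnoN) and Tgif1 are repressors that sit on SMAD complexes at the DNA. Transcripts of Smad7, Pmepa1 and Skil are widely used as readouts of TGF-beta signaling for that reason.

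Values are log2 intensities, a difference of 1 being a doubling. A gene is called when its adjusted p (limma, Benjamini-Hochberg over the 12735 genes tested) is under 0.05, and errors of changes are standard errors. All 10 genes passed the filter on dim genes, a mean log2 intensity over 5.37. Array medians lay between 62.3 and 66.1 intensity units. Of 6 markers of the labelled carcinoma cells, Krt8, Krt18, Vim, Cdh2 and Epcam averaged 12.16, 12.10, 14.40, 9.41 and 7.17 log2 intensity, above the filter, and Cdh1 averaged 4.85, below it. Of 4 lung epithelium markers Sftpb averaged 7.05, above the filter, while Nkx2-1, Sftpc and Scgb1a1 averaged 5.24, 5.04 and 3.78, below it. The 10 skeletal muscle markers summed highest in radiation replicate 3 and control replicate 1. Nothing in the labels says that the tumors of a group came from separate mice, so the p-values measure only the spread between these samples.

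With radiation 2 of the 10 genes changed, and with 1D11 none passed the test. Over both antibodies, Pmepa1 was lower and Tgif1 higher in the 6 irradiated than in the 6 unirradiated tumors, 2 of 10 called, against 7.26% of all genes tested (3.87% lower and 3.39% higher). In 1D11_radiation against control tumors Pmepa1 was called, 1 of 10, against 2.35% of all genes. No member was called in radiation against control tumors, where 2.39% of all genes were called, or in 1D11_radiation against 1D11 tumors, where 0.0785% were. At an unadjusted p under 0.05 (limma) these had 3 and 3 of 10 members, against 18.7% and 15.5% of all genes. None was called for 1D11 over both radiation states, where 0.00785% of all genes were called and 2 of 10 members had an unadjusted p under 0.05 (limma), against 12.5% of all genes. None was called in 1D11 against control tumors (0.0157% of all genes), in 1D11_radiation against radiation tumors (0%) or for the interaction (0%). Unadjusted p-values (limma) under 0.05 had 1, 1 and 0 of 10 members there, against 14.1%, 5.4% and 7.48% of all genes. The median change over the 10 genes was 0.05 for radiation and 0.02 for 1D11, beside -0.01 and 0.02 over all genes. The comparisons with control tumors share the same 3 arrays.

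**Figure D1:**
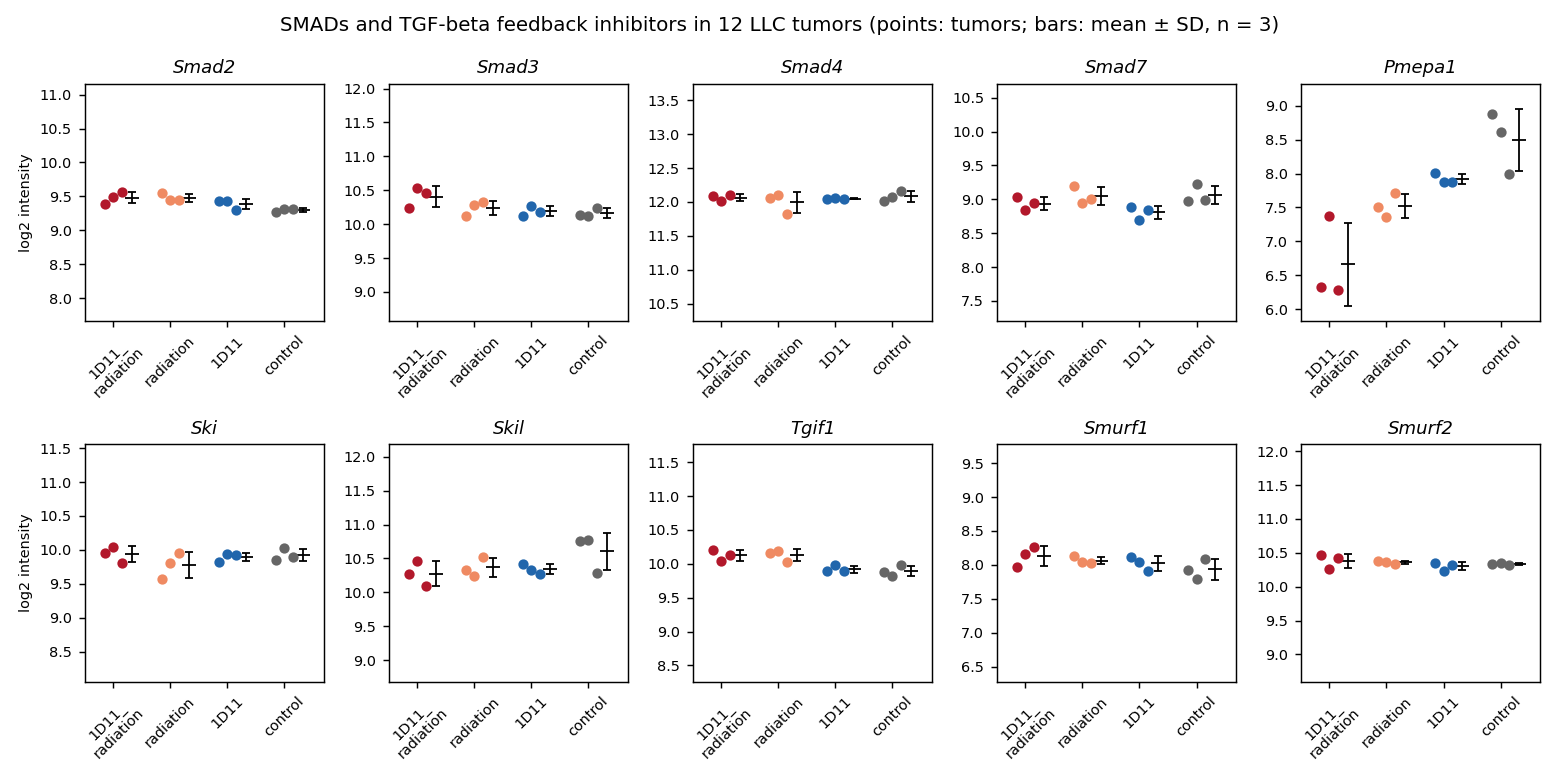
Log2 intensity of the 10 genes in each tumor (points), with the mean and SD of each group of 3 beside them; every panel spans the same number of log2 units. Pmepa1 runs from 6.27 to 8.88 over the 12 tumors, while Smurf2 stays between 10.24 and 10.46.

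Pmepa1 varied most. Its level was 6.33, 7.37 and 6.27 in 1D11_radiation tumors, 7.50, 7.36 and 7.72 in radiation tumors, 8.01, 7.88 and 7.87 in 1D11 tumors, and 8.88, 8.61 and 7.99 in control tumors. Every irradiated tumor lay below every unirradiated one (2.41% of all genes were lower without overlap). Within each radiation state the 1D11 and 13C4 tumors overlapped by 1 tumor. Its SD over the 12 tumors, 0.77, was larger than that of 99.0% of the genes tested, while the other members had SDs of 0.06 to 0.20 beside a median of 0.14 over all genes.

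Over both antibodies Pmepa1 fell to 0.462-fold with radiation, a log2 change of -1.11 ± 0.20 (n = 6 tumors a side, limma adjusted p = 0.0101), and it passed with any single tumor left out. With both treatments it was at 0.280-fold of the control level (-1.84 ± 0.28, n = 3 tumors a group, limma adjusted p = 0.0164), from means of 6.66 ± 0.62 in 1D11_radiation and 8.49 ± 0.45 in control tumors (SD). That call was lost without 1D11_radiation replicate 1 (limma adjusted p = 0.0522) or replicate 3 (0.0697) and when only these 6 arrays were fitted (0.104). In radiation against control tumors the change was -0.97 ± 0.28 (limma adjusted p = 0.0923), and the call was reached without 1D11_radiation replicate 2, the tumor that stands apart in its group (0.0282). In 1D11_radiation against 1D11 tumors it was -1.26 ± 0.28 (limma adjusted p = 0.0843), and it passed without that tumor (-1.62, 0.0339) or without control replicate 1 (0.0448).

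The effect of 1D11 on Pmepa1 had the same sign in both radiation states and did not pass. The log2 change was -0.87 ± 0.28 in 1D11_radiation against radiation tumors (limma, unadjusted p = 0.00936, adjusted p = 0.840) and -0.57 ± 0.28 in 1D11 against control tumors (limma adjusted p = 0.380). Over both radiation states it was -0.72 ± 0.20, a 95% interval of -1.15 to -0.29 (limma, unadjusted p = 0.00355, adjusted p = 0.269). The interaction, the radiation effect under 1D11 minus that under 13C4, was -0.30 ± 0.39 with an interval of -1.16 to 0.57 (limma adjusted p = 0.909). Without 1D11_radiation replicate 2 it was -0.65.

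Some markers of other cells and of stress also differed in 1D11 against control tumors, with none called. All 4 tested keratinocyte markers were higher, at a median of 1.11, and the 9 measured summed to 1031, 471 and 2799 intensity units in 1D11 tumors, against 427, 464 and 484 in control tumors. They summed to 413 to 435 in 1D11_radiation tumors, against 445 to 469 in radiation tumors. Named for the smallest p of their lists, the adipocyte gene Adipoq differed by 1.77 ± 0.51 (limma adjusted p = 0.196) and Pdgfrb by -1.49 ± 0.32 (0.127). The heat shock genes Hspa1b and Hspa1a differed by -1.14 ± 0.21 (limma adjusted p = 0.111) and -1.18 ± 0.28 (0.141). Pdgfrb and both heat shock genes were lower without overlap, as were 6.95% of all genes. Their lists were mixed in 1D11 against control tumors. Of tested adipocyte markers 2 were higher and 1 lower, of fibroblast markers 2 higher and 4 lower, and of stress markers 4 higher and 4 lower. Of 7 tested leukocyte markers 6 were higher and 1 lower (median 0.19), with Itgam at 0.68 ± 0.13 (limma adjusted p = 0.111). All 10 muscle markers were higher (median 0.40). In 1D11_radiation against radiation tumors 1 leukocyte marker was higher and 6 lower (median -0.23), and all 10 muscle markers were lower (-1.69). The part of these markers in the 1D11 changes of Pmepa1 and Smad7 was not tested.

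The other probe sets of Pmepa1 had smaller changes of the same sign. The second brightest read 5.43, 5.71 and 5.46 in 1D11_radiation tumors, 5.98, 5.82 and 6.09 in radiation tumors, 6.13, 6.22 and 6.37 in 1D11 tumors, and 7.00, 6.54 and 6.30 in control tumors. Its radiation change was -0.68 ± 0.11 (limma, adjusted p = 0.0114 over the 34945 probe sets with 1 symbol) and its change with both treatments -1.08 ± 0.15 (0.0152). The dimmest lay below the filter, at a mean of 5.06, with a radiation change of -0.21 ± 0.08 (limma adjusted p = 0.199). With the mean of the 3 in place of the brightest the radiation change was -0.67 (limma adjusted p = 0.0101), the change with both treatments -1.09 and the 1D11 change -0.42.

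**Figure D2:**
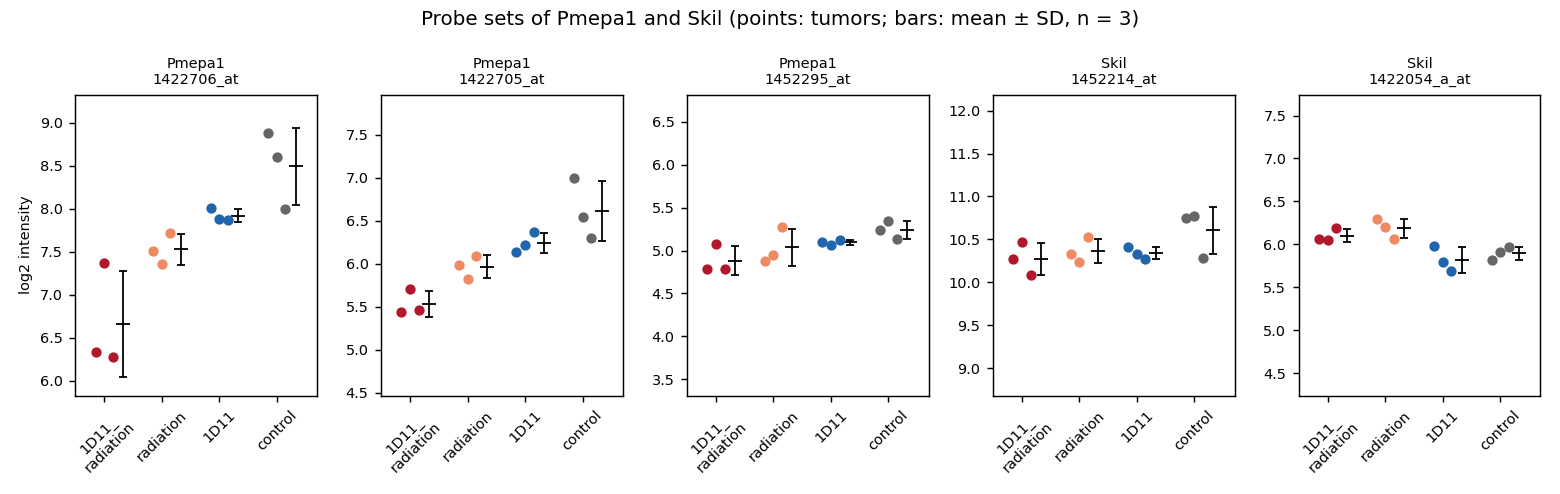
Log2 intensity of the 3 probe sets of Pmepa1 and the 2 of Skil in each tumor (points), with group means and SDs (n = 3), brightest probe set of each gene first. For Pmepa1 the irradiated tumors are low in the first 2 panels; for Skil the probe sets run in opposite directions with radiation.

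Markers of fibroblasts and endothelium were also lower after radiation. All 6 fibroblast markers were lower with radiation and 2 fell, Pdgfra (-0.92 ± 0.10) and Pdgfrb (-1.47 ± 0.23), growth factor receptors of mesenchymal cells. Their summed intensity was 29824 to 42201 in 1D11_radiation tumors, 28272 to 44477 in radiation tumors, 42190 to 44579 in 1D11 tumors and 41020 to 51046 in control tumors. All 5 tested endothelial markers were lower and 2 fell, the angiopoietin receptor Tek (-0.70 ± 0.09) and the clotting factor Vwf (-0.82 ± 0.22). Their summed intensity was 552 to 640 in 1D11_radiation, 483 to 524 in radiation, 619 to 819 in 1D11 and 581 to 986 in control tumors. No marker is at 0 on this scale. Other lists went both ways with radiation over both antibodies, with none called. All 5 tested carcinoma markers were higher (median 0.06), as were all 10 muscle markers (0.15). All 4 tested keratinocyte markers were lower (median -0.57), as were all 3 tested adipocyte markers (-0.45). Of 7 tested leukocyte markers 5 were higher and 2 lower (median 0.12). In radiation against control tumors 6 of them were higher and 1 lower. Itgam was called there (0.59 ± 0.13, limma adjusted p = 0.0453), as were 2.39% of all genes. In 1D11_radiation against 1D11 tumors 1 leukocyte marker was higher and 6 lower (median -0.17), with none called. Carcinoma markers summed to 32963 to 33599 in radiation tumors, against 29378 to 30399 in control tumors. In 1D11_radiation and 1D11 tumors these sums overlapped, at 30976 to 34195 and 28667 to 32763. Muscle markers went opposite ways under the 2 antibodies, with none called. All 10 were higher in radiation against control tumors (median 1.20). All 10 were lower in 1D11_radiation against 1D11 tumors (median -0.83). The part of any of these cells in the Pmepa1 result was not tested. Without the tumors with the most muscle signal, control replicate 1 and radiation replicate 3, the Pmepa1 radiation change was -1.06 (limma adjusted p = 0.0156).

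Tgif1, a homeodomain repressor that binds SMAD complexes and recruits histone deacetylases, was higher after radiation by a small and even amount. It read 10.20, 10.04 and 10.14 in 1D11_radiation tumors, 10.16, 10.19 and 10.03 in radiation tumors, 9.89, 9.98 and 9.89 in 1D11 tumors, and 9.88, 9.82 and 9.98 in control tumors. No irradiated tumor overlapped with an unirradiated one (1.95% of all genes were higher without overlap). The change was 0.22 ± 0.05, or 1.17-fold (n = 6 tumors a side, limma adjusted p = 0.0269), with 0.21 ± 0.07 in 1D11_radiation against 1D11 tumors (limma adjusted p = 0.206) and 0.24 ± 0.07 in radiation against control tumors (0.109). With both treatments it was 0.23 ± 0.07 (limma adjusted p = 0.0995). The call over both antibodies held without 5 of the 12 tumors in turn. It was lost without 1D11_radiation replicate 1 or 3, radiation replicate 1 or 2, 1D11 replicate 1 or 3, or control replicate 2, at adjusted p from 0.0503 to 0.0698 and changes of 0.20 or more. Tgif1 has 1 probe set with its symbol alone, so there is no second reading among the probe sets used, and adjusted over all 34945 of them its p was 0.0512 (limma), which does not pass. For 1D11 its change was 0.01 ± 0.05, an interval of -0.10 to 0.12.

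Of the called members Tgif1 is the one with promoter windows in the RefSeq table used here (GRCm38.p6), which covers 5 of the 10 genes with 9 windows of 300 bases, from 250 before to 50 after an annotated start. Tgif1 has 5 such starts, and the array does not tell which of them is in use. The windows were searched on both strands for CAGAC, the core that SMAD proteins bind, and for GTCTAGAC, the palindromic SMAD site, which shares the letters AGAC with it. CAGAC is present in 3 of the 5 Tgif1 windows, in 5 of the 9 windows of the members and in 49.6% of all 32851 windows. GTCTAGAC is in none of the 9 and in 0.213% of all. The 3 Tgif1 windows with a match, named upstream, middle and downstream among these 3 only, are shown 5′ to 3′, to let the match be seen beside the gene that rose, with CAGAC or its reverse complement GTCTG in capitals.
Tgif1 upstream window, chr17:70853483-70853782 (- strand): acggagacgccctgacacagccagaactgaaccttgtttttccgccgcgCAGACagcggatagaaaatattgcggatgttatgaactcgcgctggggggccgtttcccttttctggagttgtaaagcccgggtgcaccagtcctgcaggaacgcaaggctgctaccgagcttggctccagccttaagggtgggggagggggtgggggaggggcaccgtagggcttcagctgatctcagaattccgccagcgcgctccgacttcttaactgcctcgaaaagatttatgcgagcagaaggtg
Tgif1 middle window, chr17:70851685-70851984 (- strand): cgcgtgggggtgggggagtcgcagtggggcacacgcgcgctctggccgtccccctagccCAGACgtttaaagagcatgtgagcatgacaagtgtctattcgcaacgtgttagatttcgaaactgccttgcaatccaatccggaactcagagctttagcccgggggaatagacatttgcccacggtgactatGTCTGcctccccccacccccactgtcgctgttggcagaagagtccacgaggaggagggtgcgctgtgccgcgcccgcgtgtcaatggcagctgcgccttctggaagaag
Tgif1 downstream window, chr17:70849741-70850040 (- strand): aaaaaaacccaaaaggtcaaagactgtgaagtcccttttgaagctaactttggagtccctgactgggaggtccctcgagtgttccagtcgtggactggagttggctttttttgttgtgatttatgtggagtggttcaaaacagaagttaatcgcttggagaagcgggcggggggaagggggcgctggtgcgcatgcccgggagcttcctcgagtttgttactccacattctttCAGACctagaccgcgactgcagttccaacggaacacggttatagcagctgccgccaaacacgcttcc
In the upstream window the match begins 201 bases before the start of that window's transcript, in the middle window 191 and 59 bases before its start, and in the downstream window 17 bases before its start. A match in these windows is a description of the letters, not of a bound site.

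Smad7, the inhibitory SMAD that blocks the receptors, did not pass in any comparison. Its level was 9.03, 8.84 and 8.95 in 1D11_radiation tumors, 9.19, 8.94 and 9.00 in radiation tumors, 8.89, 8.69 and 8.84 in 1D11 tumors, and 8.98, 9.22 and 9.00 in control tumors. All 1D11 tumors lay below all control tumors (6.95% of all genes were lower without overlap), and the irradiated groups overlapped. The 1D11 change was -0.26 ± 0.10 without radiation (limma, unadjusted p = 0.0194, adjusted p = 0.271) and -0.11 ± 0.10 with it (limma adjusted p = 0.876). Over both states it was -0.18 ± 0.07, an interval of -0.33 to -0.03 (limma adjusted p = 0.330). A second probe set, of a type that may bind related sequences, gave -0.05 ± 0.07. For radiation Smad7 changed by 0.05 ± 0.07, an interval of -0.09 to 0.20 (limma adjusted p = 0.680).

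The receptor-activated Smad2 and Smad3 were slightly higher after radiation without passing the test. Smad2 read 9.39, 9.49 and 9.56 in 1D11_radiation tumors, 9.55, 9.44 and 9.45 in radiation tumors, 9.43, 9.43 and 9.30 in 1D11 tumors, and 9.26, 9.32 and 9.32 in control tumors. Each irradiated tumor exceeded each control tumor (10.6% of all genes were higher without overlap in radiation and 14.7% in 1D11_radiation tumors), while the 1D11 tumors overlapped with the 1D11_radiation tumors. The radiation change was 0.14 ± 0.05 (limma, unadjusted p = 0.0151, adjusted p = 0.105). It was 0.18 ± 0.07 in radiation against control tumors (limma, unadjusted p = 0.0216, adjusted p = 0.184). In 1D11_radiation against control tumors it was also 0.18 ± 0.07 (limma, unadjusted p = 0.0205, adjusted p = 0.155). A dimmer probe set of Smad2 gave -0.08 ± 0.08 for radiation over both antibodies.

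Smad3 read 10.23, 10.53 and 10.45 in 1D11_radiation tumors, 10.13, 10.28 and 10.32 in radiation tumors, 10.12, 10.27 and 10.18 in 1D11 tumors, and 10.14, 10.11 and 10.24 in control tumors. The highest values were those of 2 of the 3 tumors with both treatments, and all groups overlapped with their neighbours. The radiation change was 0.15 ± 0.06 (limma, unadjusted p = 0.0382, adjusted p = 0.176), and with both treatments against control it was 0.24 ± 0.09 (limma adjusted p = 0.152). In 1D11_radiation against 1D11 tumors it was 0.22 ± 0.09 (limma, unadjusted p = 0.0325, adjusted p = 0.268). A second probe set, at a mean of 6.04 beside 10.25 for the brightest, gave 0.27 ± 0.07 for radiation (limma, adjusted p = 0.0697 over all probe sets). The dimmest, below the filter, gave -0.01 ± 0.09. For 1D11 the changes were 0.05 ± 0.05 for Smad2 and 0.09 ± 0.06 for Smad3 (limma adjusted p = 0.701 and 0.533). The dimmer probe set of Smad2 gave 0.25 ± 0.08 for 1D11 (limma, unadjusted p = 0.00675, adjusted p = 0.339 over all probe sets).

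Smad4, the partner shared by all signaling SMADs, ranged from 11.82 to 12.17 over the 12 tumors. Both ends belong to 13C4 tumors, radiation replicate 3 and control replicate 3. Its change was -0.04 ± 0.06 with radiation, an interval of -0.16 to 0.09, and 0.02 ± 0.06 with 1D11, an interval of -0.10 to 0.14 (limma adjusted p = 0.756 and 0.904). Its dimmest probe set changed by 0.04 ± 0.05 with radiation and 0.04 ± 0.05 with 1D11. The remaining one changed by -0.10 ± 0.06 with radiation and 0.15 ± 0.06 with 1D11, a value above the interval of the brightest (limma, unadjusted p = 0.0236, adjusted p = 0.396 over all probe sets).

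Ski and Skil are related proto-oncogene products that hold SMAD complexes in a repressed state. Ski ranged from 9.57 in radiation replicate 1 to 10.04 in 1D11_radiation replicate 2, with changes of -0.05 ± 0.07 for radiation and 0.06 ± 0.07 for 1D11 (limma adjusted p = 0.705 and 0.735). Its other probe set, at a mean of 9.61, changed by -0.09 ± 0.06 with radiation and by -0.09 ± 0.06 with 1D11. The interaction of that probe set was -0.10 ± 0.13, while that of the brightest was 0.18 ± 0.14. Skil read 10.27, 10.47 and 10.09 in 1D11_radiation tumors, 10.33, 10.24 and 10.52 in radiation tumors, 10.41, 10.33 and 10.27 in 1D11 tumors, and 10.75, 10.77 and 10.29 in control tumors. Control replicates 1 and 2 were the highest of the 12 for Skil and for Pmepa1, and 1D11_radiation replicate 3 was the lowest for both. Control replicate 3 lay among the treated ones.

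The brightest probe set of Skil changed by -0.15 ± 0.10 with radiation (limma adjusted p = 0.374), by -0.18 ± 0.10 with 1D11 (limma adjusted p = 0.455) and by -0.33 ± 0.14 with both treatments against control (limma, unadjusted p = 0.0341, adjusted p = 0.196). The dimmer probe set of Skil ran the other way with radiation. It read 6.06, 6.06 and 6.19 in 1D11_radiation tumors, 6.29, 6.20 and 6.07 in radiation tumors, 5.99, 5.79 and 5.69 in 1D11 tumors, and 5.81, 5.91 and 5.96 in control tumors. Its radiation change was 0.29 ± 0.07 (limma, adjusted p = 0.0401 over all probe sets), with no overlap between irradiated and unirradiated tumors (of all genes, by their brightest probe set, 1.95% were higher without overlap). The direction for Skil after radiation therefore depends on the probe set, and with their mean it was 0.07 (limma adjusted p = 0.511). What separates the probe sets was not tested.

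The ubiquitin ligases Smurf1 and Smurf2, which tag receptors and SMADs for destruction, did not pass by their brightest probe sets. Smurf1 ranged from 7.79 in control replicate 2 to 8.27 in 1D11_radiation replicate 3, with changes of 0.12 ± 0.07 for radiation and 0.08 ± 0.07 for 1D11 (limma adjusted p = 0.332 and 0.656). Smurf2 had the narrowest range of the members, and its changes were 0.05 ± 0.05 for radiation, an interval of -0.05 to 0.15, and -0.01 ± 0.05 for 1D11 (limma adjusted p = 0.568 and 0.966). The dimmer probe set of Smurf1 had a radiation change of 0.41 ± 0.10 (limma, adjusted p = 0.0528 over all probe sets), and the 2 dimmer ones of Smurf2 had 0.22 ± 0.06 (0.0797) and 0.03 ± 0.07 (0.887). None of the 3 passed. Of the 13 probe sets that were not the brightest of their gene, 9 had the same sign as the brightest for radiation and 9 for 1D11.

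**Figure D3:**
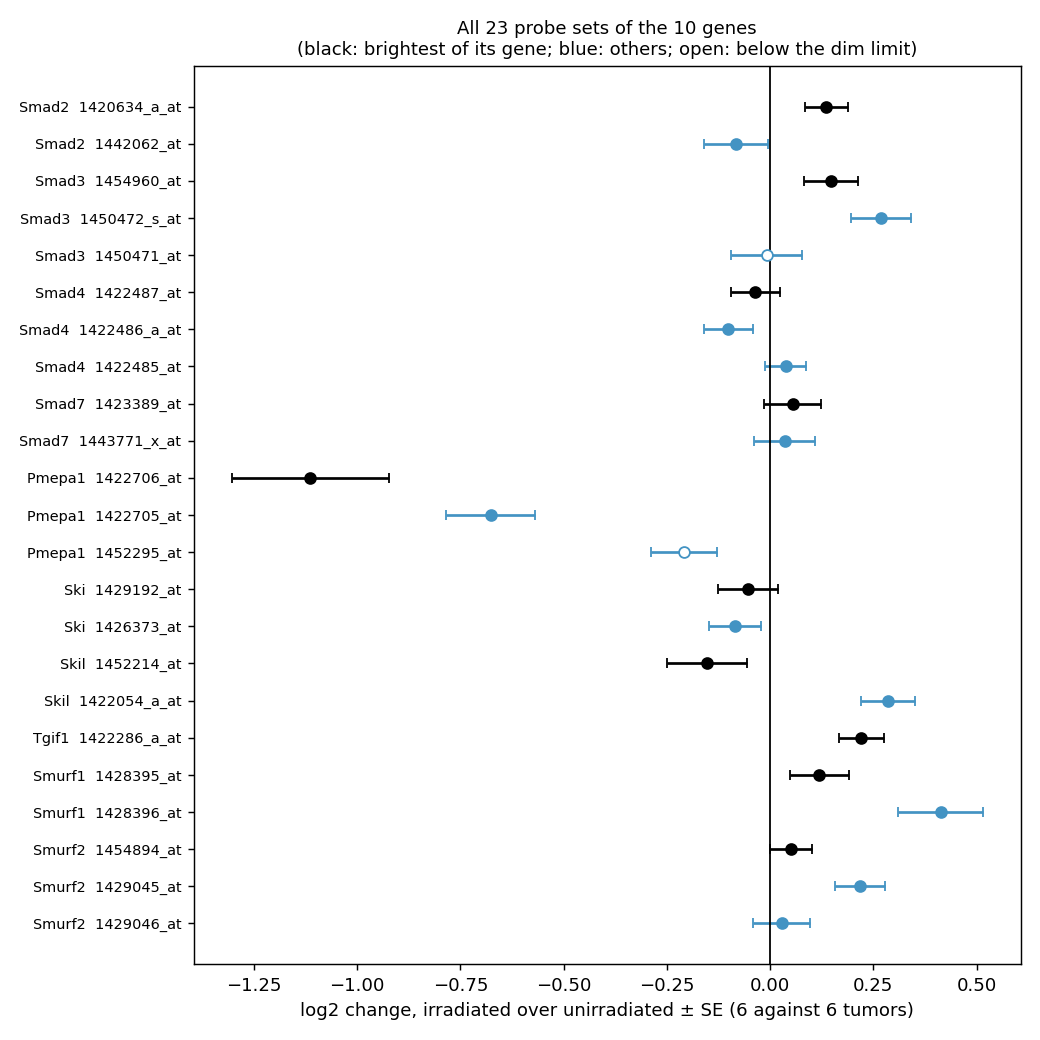
Log2 change of all 23 probe sets between the 6 irradiated and the 6 unirradiated tumors, with standard errors; black marks the brightest probe set of a gene, and open circles lie below the filter. The 3 probe sets of Pmepa1 are negative, the 2 of Skil lie on either side of 0, and those of Smurf1 and Smurf2 are positive.

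**Figure D4:**
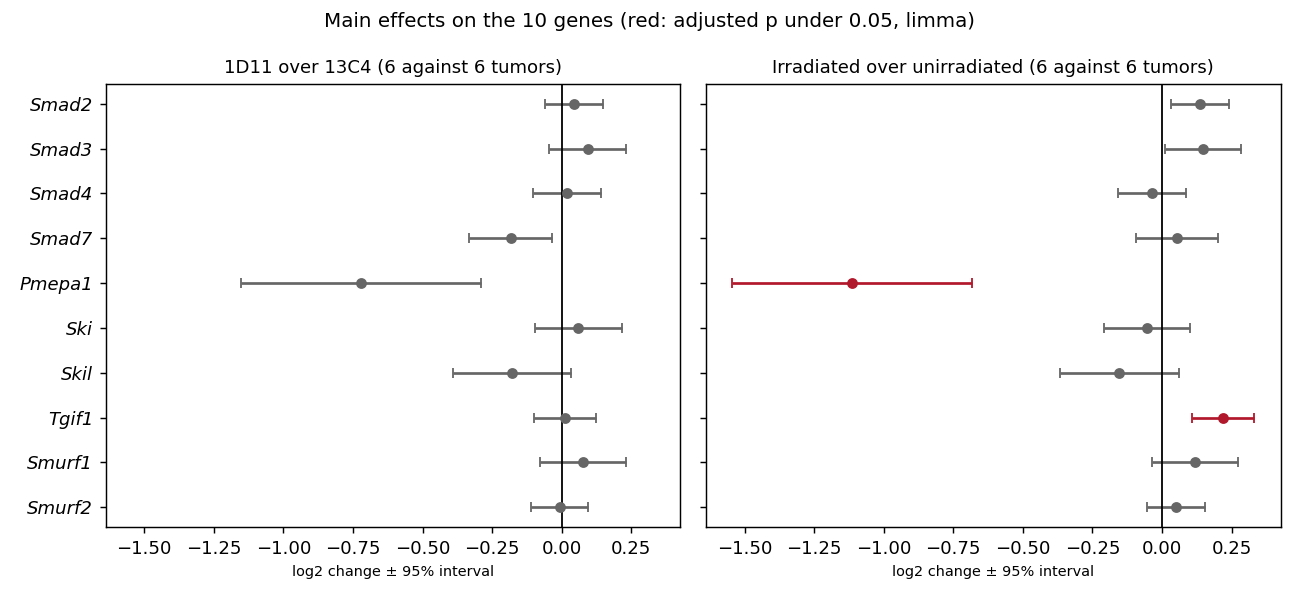
Log2 changes with 95% intervals for 1D11 over 13C4 (left) and for irradiated over unirradiated tumors (right), 6 against 6 tumors each; red marks an adjusted p under 0.05. Pmepa1 lies at -0.72 for 1D11 and -1.11 for radiation, and the other 9 genes lie between -0.18 and 0.22.

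The effect of radiation on these genes did not differ detectably between antibodies. By the brightest probe sets, interactions of the other 9 members ran from -0.09 ± 0.09 for Smad2 to 0.18 ± 0.14 for Ski. They were 0.17 ± 0.19 for Skil, 0.15 ± 0.13 for Smad7, 0.14 ± 0.13 for Smad3 and 0.10 ± 0.11 for Smad4. Smurf2 had 0.05 ± 0.09, Smurf1 -0.02 ± 0.14 and Tgif1 -0.03 ± 0.10. Adjusted p-values (limma) lay between 0.837 and 0.986. The widest of their intervals, for Skil, ran from -0.25 to 0.60.

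Genes above and beside the SMADs were read from lists. Of 18 tested TGF-beta ligands, receptors and latent binding proteins, 1 rose and 2 fell with radiation over both antibodies, at a median of -0.0032: the activin receptor Acvr1b rose (0.31 ± 0.07, limma adjusted p = 0.0215), and the ligand Tgfb3 (-0.72 ± 0.14, 0.0134) and the TGF-beta-activating integrin chain Itgb8 (-0.63 ± 0.16, 0.0353) fell. In radiation against control tumors Nrros, which anchors latent TGF-beta on myeloid cells, rose (0.52 ± 0.12, limma adjusted p = 0.0454) and Tgfb3 fell. That rise was under 13C4, and the Nrros interaction was -0.82 ± 0.16 (limma adjusted p = 0.281). With 1D11 none was called, and 8 of 18 were higher, at a median of -0.02; the smallest p in 1D11 against control tumors belonged to Nrros (0.56 ± 0.12, limma adjusted p = 0.127) and Acvr1c (-0.21 ± 0.07, 0.238).

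Of 7 tested other SMADs and inhibitors of the BMP arm, 2 rose and 1 fell with radiation, at a median of -0.02. Smad5, a SMAD of BMP receptors, fell by 0.45 ± 0.07 (limma adjusted p = 0.00806) with no overlap, while the BMP antagonist Grem1 (1.14 ± 0.30, 0.0425) and the activin antagonist Fst (0.76 ± 0.21, 0.0499) rose. None was called with 1D11, where Bambi, a decoy receptor, had -0.23 ± 0.09 and Fst 0.66 ± 0.29 in 1D11 against control tumors (limma adjusted p = 0.324 and 0.342).

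Of 26 tested regulators of SMAD turnover and transcription, Dab2, an endocytic adaptor of TGF-beta receptors, rose with radiation (0.33 ± 0.06, limma adjusted p = 0.0117), in radiation against control tumors (0.51 ± 0.09, 0.0188) and in 1D11_radiation against control tumors (0.48 ± 0.09, 0.0265). Over both antibodies its irradiated and unirradiated tumors overlapped, and the Dab2 interaction was -0.36 ± 0.12 (limma adjusted p = 0.511). No other regulator of this list was called, and the list median with radiation was 0.01. In 1D11 against control tumors 21 of 26 were higher, at a median of 0.05 beside 0.04 over all genes, with none called; the smallest p belonged to the ligase gene Wwp1 (0.35 ± 0.08, limma adjusted p = 0.141) and to Dab2 (0.33 ± 0.09, 0.171).

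Of 26 tested TGF-beta-induced targets, none was called in any 1D11 comparison, and 11 of 26 were higher over both radiation states, at a median of -0.08. In 1D11 against control tumors 13 of 26 were higher, and the smallest p belonged to 2 genes that were lower. The matricellular gene Ccn2 had -1.16 ± 0.24 and the repressor gene Bhlhe40 -0.51 ± 0.15 there (limma adjusted p = 0.127 and 0.209). Neither overlapped (6.95% of all genes were lower without overlap). The Ccn2 interaction was 1.41 ± 0.34 (limma adjusted p = 0.381). For 1D11 over both radiation states the smallest p belonged to Snai2, which was higher (0.39 ± 0.13, limma adjusted p = 0.303). With radiation the angiogenic factor gene Vegfa rose (0.62 ± 0.16, limma adjusted p = 0.0446), and in radiation against control tumors the metalloprotease inhibitor Timp1 rose (0.54 ± 0.12, 0.0498). The Timp1 interaction was -0.48 ± 0.18 (limma adjusted p = 0.580). The list median with radiation was 0.12.

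Over the 12 arrays, the tested genes most like the feedback inhibitors were ranked by Pearson correlation, a description of arrays that share treatment groups. For Pmepa1 they were Rgs5, a pericyte marker (r = 0.91, Spearman's rho = 0.94), 2900009J06Rik (r = 0.89) and 2510009E07Rik (r = 0.89). For Smad7 they were Bhlhe40 (r = 0.89, rho = 0.87), Gdf3 (r = 0.82) and Ybx3 (r = 0.82), and for Skil they were Sprr2k, Dynlrb1 and Sox13 (r = 0.86 each).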

How the data were processed

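Intensities of 45101 probe sets were read on 12 Affymetrix 1-color arrays, 1 per tumor. Per the labels' protocols, 6 µg of total RNA went into each biotinylated cRNA, and mice were allotted to treatment at a tumor volume of 60 to 80 mm3. The deposited values are summary intensities on a linear scale (7.40 to 29996 units for gene probe sets) from the authors. Sorted log2 values of any 2 arrays differ by at most 0.129, so the arrays were taken as already on 1 scale; how they were corrected, normalized and summarized, and with which software, is not given in the labels. The number of arrays limits the precision, and background per array is not known.

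Here the values were taken as log2 intensity (floor 1, which no value reached) after 64 control probe sets were left out. The platform's probe table gives 34945 probe sets 1 symbol, 932 several and 9160 none; only the first kind was used. Genes in the lowest 30 percent of mean log2 intensity were left out, and 12735 were tested by linear models with moderated variances (limma 3.58.1 under R 4.3.3, a mean for each group, all 12 arrays, two-sided, 8 residual and 3.11 prior degrees of freedom). The main effects are means of both simple effects. Probe sets were also fitted on their own, over all 34945. The fit for radiation over both antibodies was also run on simulated data, with independent noise of equal spread in all arrays. All changes added there were larger than that of Tgif1, so that run does not cover changes of its size or unequal arrays.

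The members, gene lists, comparisons and alternatives were chosen with earlier results of these data known. All members are named; their changes are given for both main effects and the interaction, and elsewhere where the unadjusted p was under 0.05 or it helps a comparison. List genes are named where called (up to 4 of the smallest p per list and comparison), and otherwise the 2 with the smallest p in 1D11 against control. Snai2 is named as well, for the smallest p of its list for 1D11 over both radiation states. Interactions of list genes are given where they qualify a named change. For Smad7, Skil and Pmepa1 the 3 genes with the highest r are named. Markers of muscle, keratinocytes, adipocytes, leukocytes, endothelium, fibroblasts, carcinoma, lung epithelium and stress were summed per tumor. Alternatives were other probe set, filter, weight, normalization, log, prior and array choices, and each tumor left out. No array was a copy of another (SD of log2 differences at least 0.180).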

Additional observations from a re-analysis of the deposited data

How the results depend on the processing

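The Pmepa1 radiation change over both antibodies kept its call under all alternatives tried, between -1.29 and -1.02 with 1 tumor left out and at -0.67 with the mean of probe sets. Counts of called members changed as follows, with the cause not tested. For radiation over both antibodies the count of 2 became 1 with the replicate block, where Tgif1 lost its call (0.22, limma adjusted p = 0.0558), and 1 to 2 with 1 tumor left out. Same-numbered tumors of different groups had r from -0.31 to 0.27, with 3 of 18 pairs over 0.1, so the numbers were not taken as pairs; the block changed no other call of a member. In 1D11_radiation against control the count of 1 became 0 when only the groups compared were fitted, and 0 to 1 with 1 tumor left out. In radiation against control the count of 0 became 1 with array weights (Tgif1, 0.25, limma adjusted p = 0.0455) and 0 to 1 with 1 tumor left out. In 1D11_radiation against 1D11 it became 2 with array weights (Pmepa1 and Tgif1), 1 without control replicate 1 and radiation replicate 3 together, and 0 to 1 with 1 tumor left out. The other 4 comparisons stayed at 0 called members under each alternative.

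Signs turned only among changes that were not called. Using the mean of probe sets gave -0.014 for Ski and 0.017 for Smurf2 with 1D11 over both radiation states, 0.066 for Skil with radiation and 0.12 for the Smurf1 interaction. Array weights gave -0.021 for Smad4, 0.0041 for Smurf2 and -0.0061 for Tgif1 with 1D11 and 0.070 for the Smurf1 interaction. Quantile normalization gave -0.024 for Tgif1 with 1D11 and 0.038 for the Smurf1 interaction. Without control replicate 1 and radiation replicate 3, Smad4 had -0.042 and Tgif1 -0.016 with 1D11. With 1 tumor left out, the 1D11 change ran from -0.023 to 0.048 for Smad4, -0.028 to 0.025 for Smurf2 and -0.012 to 0.034 for Tgif1. The radiation change of Smad4 ran from -0.063 to 0.0077, and the interaction from -0.095 to 0.065 for Smurf1 and -0.079 to 0.013 for Tgif1.

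Counts over all genes moved more. For radiation over both antibodies 925 genes were called, 407 to 1159 with 1 tumor left out, 2176 with array weights and 1410 without control replicate 1 and radiation replicate 3. For radiation against control it was 304, 20 to 436 with 1 tumor left out, 890 with weights, 6 with the compared groups alone, 193 with probe set means and 569 without those 2 tumors. For 1D11_radiation against control it was 299, 17 to 424 with 1 left out, 923 with weights, 1 with the compared groups alone, 178 unfiltered and 85 with the block. For 1D11_radiation against 1D11 it was 10, 1 to 227 with 1 left out, 1491 with weights, 119 with the compared groups alone, 35 with probe set means, 63 with trend and robust eBayes, 1 with the block and 419 without those 2. For 1D11 against control it was 2, 0 to 21 with 1 left out, 13 with weights, 4 unfiltered, 59 without those 2, and 0 with the compared groups alone, probe set means, quantile normalization or the block. For 1D11 over both states it was 1, and 0 to 3 over all alternatives. For 1D11_radiation against radiation it was 0, 0 to 1 with 1 left out, 6 with weights and 1 without those 2. The interaction had 0, 0 to 21 with 1 left out (21 without control replicate 1), 122 with weights and 20 without those 2.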
